A study of Homo sapiens with 3 samples.

Results

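The MYC and MAX network is a set of transcription factors that share a basic helix-loop-helix leucine zipper and meet on a common partner. It is described here by 10 genes, chosen by name as MYC, MYCN and MYCL, their partner MAX, the antagonists MXD1, MXD3, MXD4 and MXI1 of the MXD family, and the larger antagonists MNT and MGA. Each gene had a single row among the 39320 gene rows that were shared by the 3 deposited tables and lay on whole chromosomes or the mitochondrial genome. RNA-seq was performed on 3 libraries labelled as wild-type HepG2, a long-established line of human liver cancer cells, which form 1 condition with no treatment and no second genotype. The labels do not say whether the replicates came from separate cultures, so the spread between them may be technical.

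As background, MYC proteins bind DNA as heterodimers with MAX at the E-box, a short palindromic DNA element, and recruit histone acetyltransferases that favour transcription. The MXD proteins and MNT pair with the same MAX and recruit the SIN3 histone deacetylase complex to the same element, so that activators and repressors draw on a common pool of MAX. MGA joins MAX to a Polycomb-type repressor complex. In the liver, MYC is known for driving growth during regeneration and in tumours, and members of the MXD family are known for their expression in cells that leave the cell cycle.

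The identity of the libraries was checked before the results. All 8 genes of a list of proteins secreted by hepatocytes (ALB, AFP, APOA1, APOB, TTR, SERPINA1, FGB and TF) were below 1 TPM in every library, and 5 of them were listed at 0 in all 3, with a summed level of 0.0571 to 0.244 TPM. TPM is a level per transcript length that sums to the same total in each library. Of 4 epithelial genes, the keratins KRT8 and KRT18 exceeded 10 TPM in every library, as did VIM, CDH2 and ZEB1 of 4 mesenchymal genes. The remaining epithelial genes were low. CDH1 had a mean of 1.02 TPM, and EPCAM was listed at 0 in replicates 1 and 2 and had 0.0901 TPM in replicate 3. FN1, the remaining mesenchymal gene, had a mean of 0.908 TPM. The 4 housekeeping genes checked (ACTB, GAPDH, PGK1 and TBP) all exceeded 10 TPM in every library, while blood genes summed to at most 0.819 TPM. The hepatocyte genes therefore go against the label of HepG2, a liver line, and the identity of the cells was not settled. The values below hold for the libraries labelled HepG2. The number of reads is not given in the sources used here. As a relative measure of depth, the coverage per FPKM reached 13.3, 12.8 and 11.5 in replicates 1, 2 and 3.

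Of the 10 genes, 8 reached 1 TPM in every library, a level reached by 33.8% of all rows and by 59.5% of the 18743 protein-coding rows. At least 10 TPM in every library was reached by 7 genes, against 20.7% of all rows and 40.4% of protein-coding rows. The genes below these levels were MYCN and MYCL, which stayed under 1 TPM in all 3 libraries, and MXD1, which stayed between 1 and 10 TPM. The network was thus represented by 1 MYC family gene, by MAX and by 6 antagonists.

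**Figure D1:**
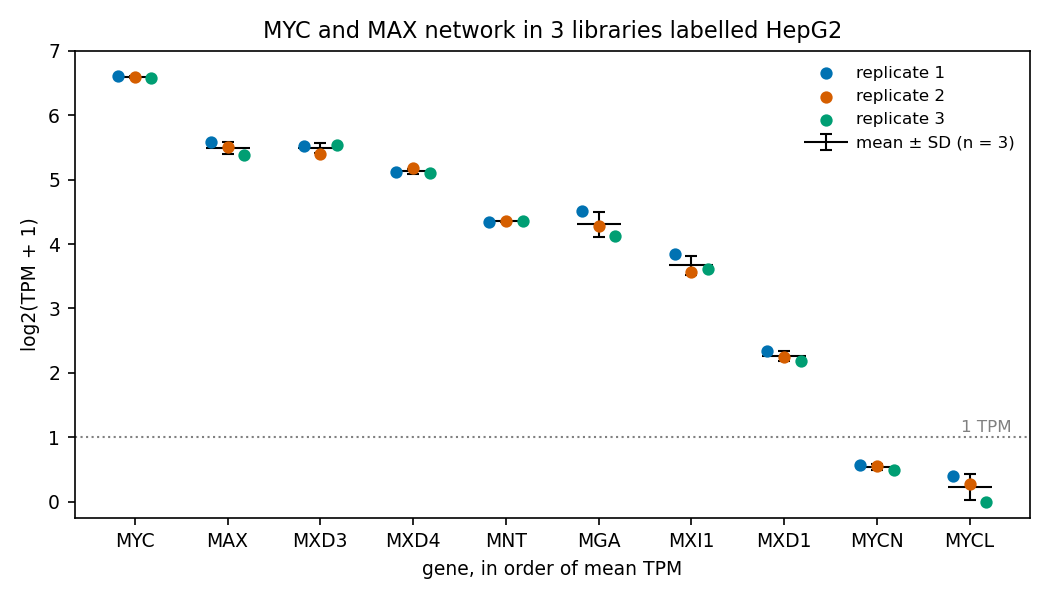
Level of each gene on the log2(TPM + 1) scale (y axis) for the 10 genes in order of mean TPM (x axis). Points are the 3 libraries and bars are the mean ± SD on that scale. MYC stands above all others in every library, MAX overlaps MXD3, MNT overlaps MGA, and MYCN and MYCL lie below the dotted line at 1 TPM.

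MYC, the archetypal activator of the network and a driver of ribosome and nucleotide synthesis, was the most abundant of the 10 genes. The deposited tables place it on the plus strand of chromosome 8 (GRCh38, 127735434 to 127742951), and its canonical transcript in GENCODE v44 has 3 exons. It had 96.5, 95.8 and 94.4 TPM in replicates 1, 2 and 3. Its mean of 95.6 ± 1.07 TPM (SD, n = 3) exceeded 88.5% of the 13753 genes averaging 1 TPM or more. The 3 libraries nearly coincided, with a coefficient of variation (CV) of 1.12%, which was lower than that of all but 4.32% of the genes averaging 10 TPM or more. The genes nearest to MYC over the 3 libraries on the log2(TPM + 1) scale were C12orf10, HIGD1A and PSMD6, at Euclidean distances of 0.0274, 0.0296 and 0.0315. With 3 libraries of 1 condition, this likeness is one of level only.

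MYCN, the family member known from neuroblastoma, lies on the plus strand of chromosome 2 (15940438 to 15947007). It had 0.492, 0.468 and 0.409 TPM in replicates 1, 2 and 3, with a mean of 0.456 ± 0.0429 TPM (SD, n = 3). MYCN was thus low but listed above 0 in every library. MYCNOS, a noncoding gene on the opposite strand, overlaps its row over 2022 bp and was listed at 0 in replicates 2 and 3.

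MYCL, the family member first described in small cell lung cancer, lies on the minus strand of chromosome 1 (39895424 to 39902015). It had 0.323 TPM in replicate 1 and 0.216 TPM in replicate 2, and it was listed at 0 in replicate 3. The tables hold no counts, so the smallest level that the reads could show is not known. MYC made up 99.2%, 99.3% and 99.6% of the summed TPM of the 3 MYC family genes in replicates 1, 2 and 3.

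MAX, the obligate partner, is a small gene product without a transactivation domain that also forms homodimers. Its row lies on the minus strand of chromosome 14 (65006101 to 65102695), whereas its canonical transcript in GENCODE v44, of 5 exons and 2010 nt, spans only 65075127 to 65102517. MAX had 46.8, 44.6 and 40.9 TPM in replicates 1, 2 and 3, a mean of 44.1 ± 3.01 TPM (SD, n = 3). It exceeded 75.8% of the genes averaging 1 TPM or more, and its 3 values lay below those of MYC without overlap. The genes nearest to MAX in level were CDT1, STK24 and TRABD, at distances of 0.0252, 0.0292 and 0.0298. The row of FNTB, a gene on the opposite strand with 11.8 ± 0.533 TPM (SD, n = 3), overlaps that of MAX. In GENCODE v44 the exons of both share 822 bp, none of them in the canonical transcript of MAX. The strand setting of the quantification is not given in the sources used here, so reads of the shared part could have been assigned to either gene.

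Within each library, MYC was compared with MAX. By TPM, MYC had 2.06, 2.15 and 2.31 times the level of MAX in replicates 1, 2 and 3. The log2 ratio was 1.10 ± 0.08 (SD, n = 3) on the log2(TPM + 1) scale, and MYC was higher in 3 of 3 libraries. An exact permutation test of the signs, two-sided, gave p = 0.25, and 0.273 after Benjamini-Hochberg adjustment over 12 ratios. With 3 libraries 0.25 is the smallest p that this test can give, so no ratio could pass a threshold of 0.05.

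The MXD family was dominated by MXD3 and MXD4. MXD3, which is known for expression in proliferating cells during S phase, had 44.8, 41.2 and 45.6 TPM in replicates 1, 2 and 3, or 43.8 ± 2.35 TPM (SD, n = 3). These values overlapped those of MAX, which was higher in 2 of 3 libraries, and the log2 ratio of MXD3 to MAX was -0.01 ± 0.14 (SD, n = 3; exact sign-flip permutation test, p = 1, adjusted p = 1). The row of MXD3 on the minus strand of chromosome 5 (177305500 to 177312291) shares 1460 bp with that of PRELID1, a gene on the plus strand with 282 ± 24.8 TPM (SD, n = 3). In GENCODE v44 the shared exonic part is 1148 bp, none of it in the canonical MXD3 transcript of 1067 nt. How many reads of PRELID1 were counted for MXD3 was not tested.

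MXD4, an antagonist associated with differentiated and resting cells, lies on the minus strand of chromosome 4 (2247432 to 2262143). It had 33.6, 35.2 and 33.4 TPM in replicates 1, 2 and 3, a mean of 34.1 ± 0.976 TPM (SD, n = 3). Each of these values was below each value of MXD3 and of MAX. The log2 ratio of MXD4 to MAX was -0.36 ± 0.09 (SD, n = 3), in the same direction in 3 of 3 libraries.

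MXI1, a further antagonist, lies on the plus strand of chromosome 10 (110207605 to 110287365). It had 13.3, 10.8 and 11.2 TPM in replicates 1, 2 and 3, or 11.8 ± 1.36 TPM (SD, n = 3). Replicate 1 stood above the other two, and the CV of 11.6% was higher than that of 94.3% of the genes averaging 10 TPM or more. MXD1, the founding member of the family and a gene linked to terminal differentiation, was the lowest antagonist by TPM. It lies on the plus strand of chromosome 2 (69915041 to 69942945) and had 4.06, 3.77 and 3.57 TPM, a mean of 3.80 ± 0.25 TPM (SD, n = 3). Its log2 ratio to MAX was -3.23 ± 0.03 (SD, n = 3), and that of MXI1 was -1.82 ± 0.11 (SD, n = 3).

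MNT, a broadly expressed antagonist that is present in proliferating and resting cells alike, lies on the minus strand of chromosome 17 (2384073 to 2401060). It had 19.3, 19.6 and 19.4 TPM in replicates 1, 2 and 3, or 19.4 ± 0.160 TPM (SD, n = 3). With a CV of 0.821% it was the least variable of the 7 members averaging 10 TPM or more. Its log2 ratio to MAX was -1.14 ± 0.10 (SD, n = 3).

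MGA, a very large protein with a T-box DNA-binding domain beside its helix-loop-helix zipper, lies on the plus strand of chromosome 15 (41621225 to 41769943), and its canonical transcript has 24 exons and 12193 nt. It had 21.8, 18.4 and 16.4 TPM in replicates 1, 2 and 3, a mean of 18.9 ± 2.70 TPM (SD, n = 3). These values were on either side of those of MNT, so the order of MNT and MGA could not be set. The log2 ratio of MGA to MAX was -1.19 ± 0.10 (SD, n = 3). MGA was the most variable of the 7 members, with a CV of 14.3%, against a median of 4.88% over the genes averaging 10 TPM or more. Of the 7 members, 4 had a CV above that median.

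The libraries also differed from one another by transcript length over all genes at this level. The 8100 genes averaging 10 TPM or more that have a canonical transcript in GENCODE v44 were divided by its length into 4 bins of nearly equal size. Replicate 1 exceeded replicate 3 in 90.0% of the genes in the bin of longest transcripts and in 48.5% of those in the bin of shortest. The median log2 ratio of replicate 1 to replicate 3 was 0.15 in the longest bin, which has a median length of 6389 nt, and -0.01 in the shortest, with a median of 1224 nt. For MGA this log2 ratio was 0.41. It was 0.25 for MXI1 (3470 nt), 0.20 for MAX (2010 nt) and 0.19 for MXD1 (5549 nt). MNT (4925 nt) had -0.01, MXD4 (3871 nt) 0.01, MYC (3721 nt) 0.03 and MXD3 (1067 nt) -0.02. The part of transcript length in the spread of MGA was not tested.

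**Figure D2:**
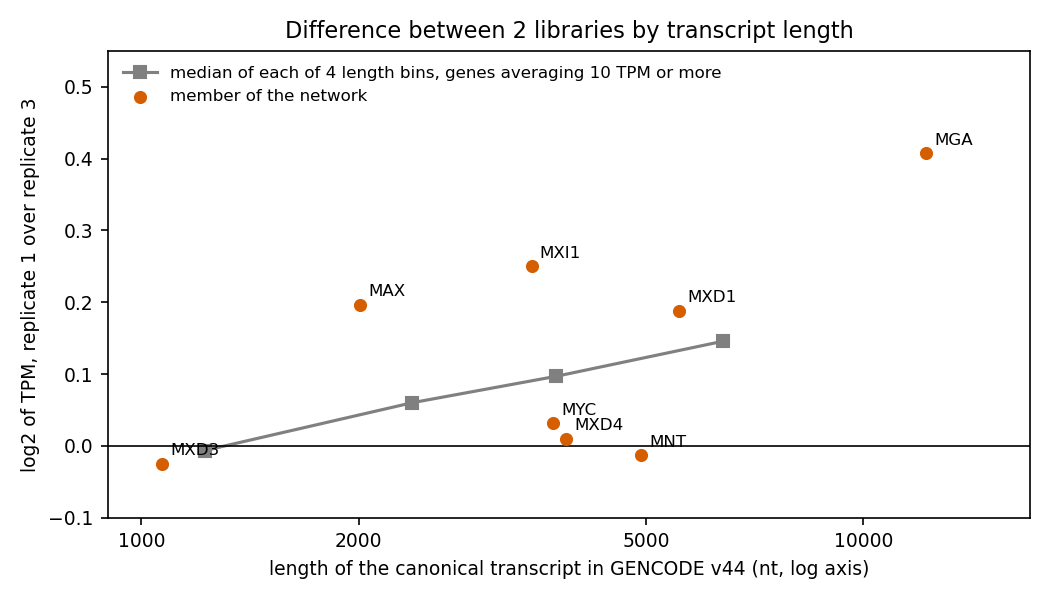
Log2 of the TPM ratio of replicate 1 to replicate 3 (y axis) against the length of the canonical transcript in nt on a log axis (x axis). Squares joined by a line are medians of the 4 length bins of 8100 genes, which run from -0.01 to 0.15, and circles are the 8 members averaging 1 TPM or more. MGA lies highest at 0.41, and MNT, MXD4 and MYC lie near 0.

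In order of mean TPM the genes ran MYC, MAX, MXD3, MXD4, MNT, MGA, MXI1, MXD1, MYCN and MYCL. The ranges over 3 libraries of neighbouring genes overlapped for MAX and MXD3 and for MNT and MGA, and were apart for the other 7 neighbouring pairs. Among the separated pairs, the lowest value of MXD3 was 41.2 TPM and the highest of MXD4 35.2 TPM, and the lowest value of MYCN was 0.409 TPM and the highest of MYCL 0.323 TPM. Of the 8 members averaging 1 TPM or more, 0 differed between replicates by over 1 on the log2(TPM + 1) scale, as did 1.26% of all 13753 genes at that level. This is a description of the spread with no test.

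The summed levels of activators and antagonists were then compared within each library. The 3 MYC family genes summed to 97.3, 96.5 and 94.8 TPM in replicates 1, 2 and 3, and the 4 MXD family genes to 95.8, 90.9 and 93.7 TPM. These sums were close by TPM, and the log2 ratio of the MXD family to the MYC family was -0.04 ± 0.04 (SD, n = 3), below 0 in 3 of 3 libraries. By coverage the sums were further apart, with a log2 ratio of -0.49 ± 0.06 (SD, n = 3), again below 0 in 3 of 3 libraries. With MNT and MGA added, the antagonists summed to 137, 129 and 130 TPM, which was 1.41, 1.34 and 1.37 times the MYC family. The log2 ratio was 0.45 ± 0.04 (SD, n = 3), above 0 in 3 of 3 libraries by TPM, and it was below 0 in all 3 by coverage, as given below. Each of the 3 summed ratios had p = 0.25 in the same exact permutation test and an adjusted p of 0.273. MXD3 supplied 33.3% ± 1.68 of the antagonist TPM, MXD4 25.9% ± 1.36, MNT 14.8% ± 0.595, MGA 14.3% ± 1.62, MXI1 8.92% ± 0.727 and MXD1 2.88% ± 0.114 (SD, n = 3). These are levels of RNA in bulk samples, in which fewer expressing cells and less RNA per cell cannot be told apart, and protein was not measured.

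The places of MAX and MXD1 in this order depended on which deposited value was used. Coverage is the mean depth over the bases of a gene, and FPKM, like TPM, is scaled for length and library size. By coverage, MAX had 24.5, 23.8 and 22.6 in replicates 1, 2 and 3, while MYC had 533, 518 and 449. The log2 ratio of MYC to MAX was then 4.34 ± 0.08 (SD, n = 3), in place of 1.10 by TPM. MXD3, MXD4 and MNT also lay above MAX by coverage, with log2 ratios of 3.03 ± 0.06, 2.32 ± 0.08 and 1.48 ± 0.06 (SD, n = 3). For MXD4 and MNT this was the reverse of their direction by TPM, whereas MXD3 overlapped MAX by TPM. MXD1, the lowest antagonist by TPM, had a coverage of 22.5 in the mean of 3 libraries, beside 22.1 for MGA and 10.9 for MXI1, and its log2 ratio to MAX was -0.08 ± 0.13 (SD, n = 3) by coverage. The log2 ratio of all antagonists to the MYC family turned as well, from 0.45 by TPM to -0.17 ± 0.04 (SD, n = 3) by coverage, below 0 in 3 of 3 libraries. By coverage MAX stood at rank 5 of the 10 genes in place of rank 2, and it moved from percentile 75.8 to 33.1.

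**Figure D3:**
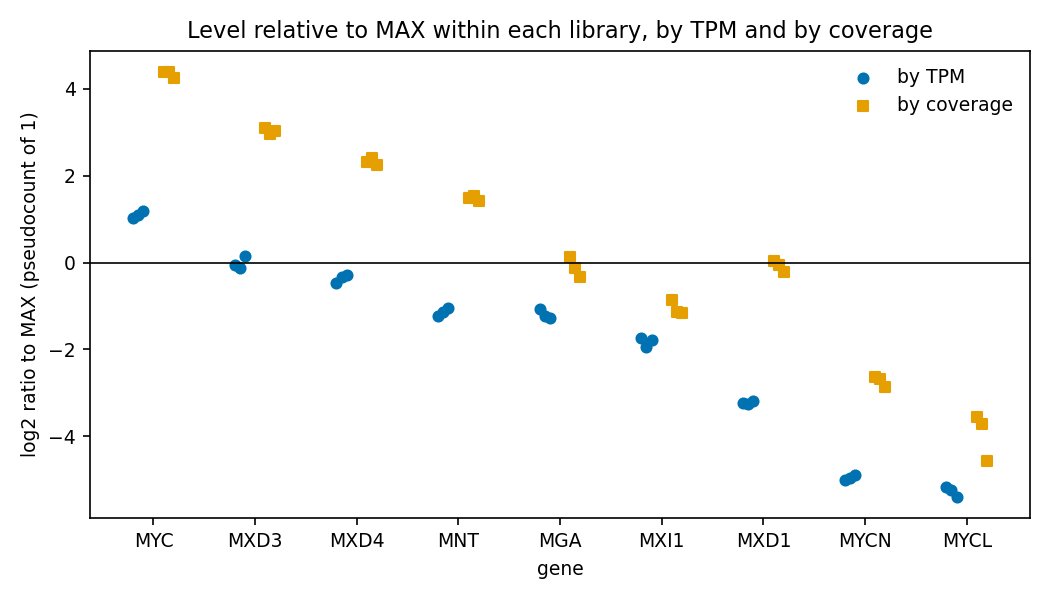
Log2 ratio of each gene to MAX within a library, with a pseudocount of 1 (y axis), for the other 9 genes in order of the ratio by TPM (x axis). Circles are ratios by TPM and squares are ratios by coverage, 3 libraries each. All squares lie above the circles of the same gene, and MXD3, MXD4 and MNT lie near or below 0 by TPM and above it by coverage.

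The ratio of coverage to FPKM shows which genes this touches. Relative to the highest value of that ratio in the library, MAX was at 0.0835, 0.0870 and 0.101 in replicates 1, 2 and 3. MXI1 was at 0.154 to 0.155 and MGA at 0.192 to 0.197, and by coverage these genes moved from percentile 43.0 to 19.0 and from percentile 55.3 to 31.9. MYC was at 0.865 to 0.882, MXD1 at 0.988 to 0.989 and MYCN at 1.00 in each library. In GENCODE v44 MXI1 has 38 transcripts, MAX 19, MGA 16, MYC 15 and MYCN 3. The joined exons of MAX cover 6257 nt, 3.11 times its canonical transcript. Those of MXD3 cover 4.45 times its canonical transcript, and its share was 0.763 to 0.772. The tables hold 1 value per gene, so the transcripts behind each level could not be told apart, and the cause of the low shares was not tested.

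**Figure D4:**
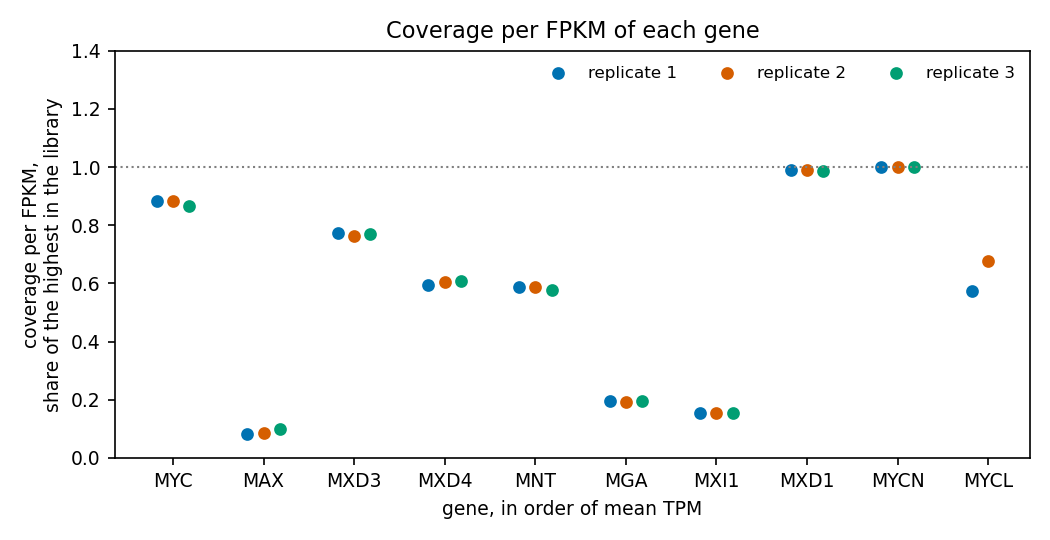
Coverage per FPKM of each gene as a share of the highest ratio in the same library (y axis) for the 10 genes in order of mean TPM (x axis). Points are libraries, and MYCL has no point in replicate 3, where it was listed at 0. MAX, MXI1 and MGA lie below 0.2 and MYC, MXD1 and MYCN above 0.8.

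The promoters of the network genes were searched for the element that the network binds, since several members are known to act on one another's genes. RefSeq promoters of GRCh38.p14, of 300 bases each from 250 before to 50 after a start site, were found for 9 members, with 14 windows in all, and MYC had no entry. The canonical E-box CACGTG, which reads the same on both strands, was in 2 of the 14 windows, those of MXD4 and MNT, and in 7.26% of 35116 promoters of the same length. The variant CACGCG, searched on both strands and therefore also as CGCGTG, was in 3 of the 14 windows, those of MXD3, MXI1 and MGA, and in 11.4% of all promoters. The windows around the matches are shown 5′ to 3′ on the strand of the gene to let the flanks be compared, with the motif in capitals.
MXD4 (chr4:2262330-2262359): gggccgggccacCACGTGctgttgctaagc
MNT (chr17:2401236-2401265): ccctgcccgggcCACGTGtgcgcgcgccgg
MXD3 (chr5:177312727-177312756): aaaaggccatttCGCGTGcctccagggtat
MXI1 (chr10:110225992-110226021): aggtaaacaaacCACGCGcgggctgcccgc
MGA (chr15:41660372-41660401): agcgggtaggagCGCGTGcgcggtgacgtg
The motif begins 238 bases before the start site in MXD4, 193 before it in MNT and 21 before it in MGA, and at base 9 after the start site in MXD3 and in MXI1. The start sites of MXD4, MNT and MGA are those of their canonical transcripts. That of MGA, at 41660405, is 1 of 3 found for the gene, and its deposited row begins further upstream, at 41621225. That of MXD3, at 177312752, lies outside its deposited row and its canonical transcript, and that of MXI1, at 110225996, is 1 of 3 in the table and lies within the gene, downstream of the canonical start at 110207605. MXD4 and MNT, the genes with the canonical element, had 34.1 and 19.4 TPM. A match is a run of letters and not a measured binding site, and binding was not measured in these libraries.

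Lists of genes around the network were then described by their mean TPM over 3 libraries. Their levels by coverage were not compared, so the orders below hold by TPM only. As a share of the highest coverage per FPKM in the library, some listed genes were low. RNF2 was at 0.0710 to 0.0742, TFDP2 at 0.168 to 0.190 and RUVBL2 at 0.214 to 0.215, while others such as EP400 were at 1.00. The median over all 18743 protein-coding rows was 4.99 TPM, and the share of these rows with at least 10 TPM in every library was the 40.4% given above. The MLX arm is the parallel branch in which MLX, a relative of MAX, pairs with the nutrient-sensing factors MLXIP and MLXIPL. MLX had 49.4 ± 1.81 TPM (SD, n = 3), its 3 values of 51.2, 49.4 and 47.6 TPM all lying above those of MAX. MLXIP had 22.3 ± 1.49 TPM (SD, n = 3), and MLXIPL, a regulator of lipid synthesis in the liver, had 4.37 ± 0.489 TPM (SD, n = 3).

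All 9 listed MYC coactivators had at least 10 TPM in every library, with a median of 82.7 TPM. The ATPases RUVBL2 and RUVBL1 led with 202 ± 5.03 and 182 ± 1.35 TPM, and the lowest were the scaffold TRRAP with 19.5 ± 1.30 TPM and its partner EP400 with 18.7 ± 1.22 TPM (SD, n = 3). Of 9 genes that set the stability of MYC proteins, 7 reached 10 TPM in every library, with a median of 40.7 TPM. The kinase AURKA, which protects MYCN from degradation, had 190 ± 6.27 TPM and the ubiquitin ligase HUWE1 had 114 ± 6.92 TPM (SD, n = 3). FBXW7, the ligase subunit that marks phosphorylated MYC for degradation, was lowest with 5.76 ± 0.326 TPM, followed by USP28, a deubiquitinase that opposes it, with 9.37 ± 0.606 TPM (SD, n = 3).

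The corepressor partners of the antagonists were present as well. Of 13 genes listed for the SIN3 corepressor, not all of them subunits of its complex, 12 had at least 10 TPM in every library. The median of the list was 28.7 TPM. The histone-binding subunit RBBP7 had 287 ± 0.199 TPM and the deacetylase HDAC1 had 187 ± 8.32 TPM, while the scaffold SIN3A had 19.0 ± 1.19 TPM and ARID4A had 3.90 ± 0.0124 TPM (SD, n = 3). All 13 listed partners of MGA in the Polycomb complex PRC1.6 reached 10 TPM, with a median of 21.4 TPM. CBX3, a heterochromatin protein, was highest with 333 ± 6.74 TPM, and the ubiquitin ligase RNF2 and the E2F partner TFDP2 were lowest with 11.6 ± 0.631 and 11.1 ± 0.0842 TPM (SD, n = 3). HDAC1 belongs to this list too and was second highest in it.

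Of 24 genes known as targets that MYC activates, 23 had at least 10 TPM in every library, and the median was 228 TPM. NPM1, a nucleolar protein of ribosome assembly, had 2519 ± 65.6 TPM, and LDHA, the enzyme that makes lactate, had 1441 ± 27.2 TPM (SD, n = 3). PPAT, which commits to purine synthesis, had 20.9 ± 1.98 TPM and the cap-binding factor EIF4E had 10.1 ± 0.244 TPM (SD, n = 3). The 5 genes listed as repressed by MYC were also expressed, with a median of 43.5 TPM and 4 of 5 at 10 TPM or more in every library. NDRG1 had 116 ± 5.31 TPM, the growth-arrest gene GADD45A had 53.6 ± 3.24 TPM, and the cyclin-dependent kinase inhibitors CDKN1C, CDKN1A and CDKN2B had 43.5 ± 3.83, 27.9 ± 1.23 and 9.03 ± 1.06 TPM (SD, n = 3). MYC was not varied in these libraries, so a response of these genes to it was not tested.

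Of 4 noncoding genes at the MYC and MYCN loci, 1 had at least 1 TPM in every library, beside 33.8% of all rows. PVT1, which begins downstream of MYC on the same strand, had 20.3, 22.0 and 23.1 TPM in replicates 1, 2 and 3, or 21.8 ± 1.41 TPM (SD, n = 3), and stayed below MYC in each. CASC11 had 0.700, 1.03 and 0.593 TPM, and MYCNUT was listed at 0 in all 3 libraries.

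**Figure D5:**
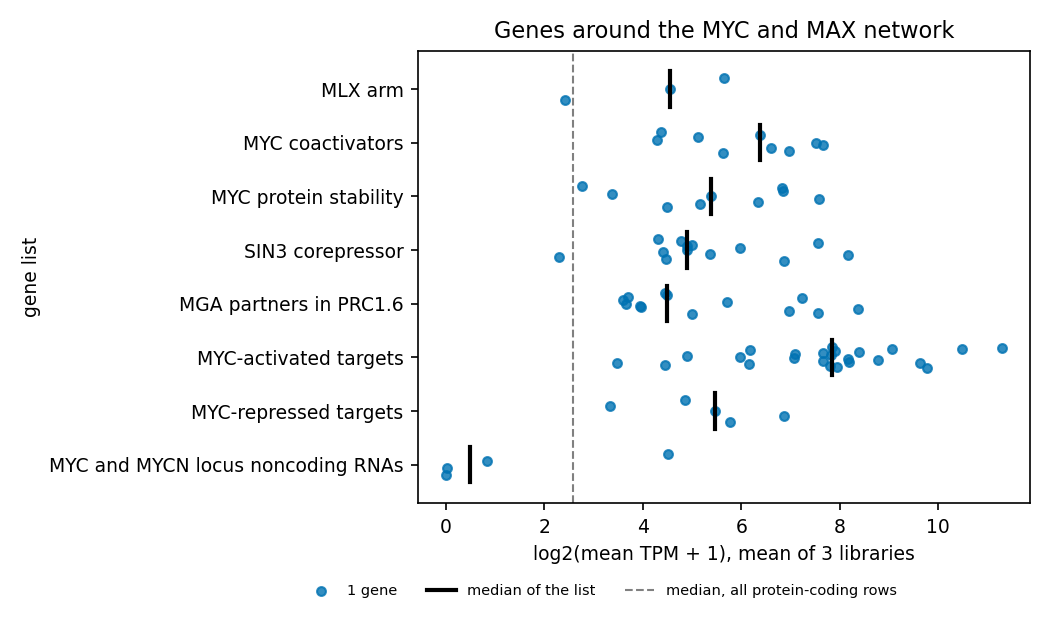
Mean level over 3 libraries on the log2(mean TPM + 1) scale (x axis) for the genes of 8 lists (y axis). Each point is a gene, each black bar is the median of its list, and the dashed line is the median of all protein-coding rows, 4.99 TPM. The targets that MYC activates have a median of 228 TPM, and 3 of the 4 noncoding genes lie near 0.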

How the data were processed

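RNA-seq of 3 libraries labelled as wild-type HepG2 was analysed. The submitters' processing notes name the build GRCh38 and the tools FastQC 0.11.8, Trim Galore 0.6.2, STAR 2.6.1a (the aligner) and StringTie. The annotation and strand setting are not given in the sources used here. The authors deposited TPM, which is scaled for length and to a fixed total in each library. The authors also deposited FPKM, scaled for length and library size, and coverage, the mean depth over the bases of a gene, which is not scaled. No counts are held, so no counting error was computed, and precision is the SD over 3 libraries.

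Rows shared by the 3 tables (43389) were joined by gene and coordinates, and the 39320 on whole chromosomes or the mitochondrial genome were used, leaving out unplaced and alternate sequences. Of 19099 rows above 0 in replicates 1 and 3, 7 had the same TPM, and fewer did in the other pairs. Levels and percentiles used TPM as deposited, and biotypes came from RefSeq by symbol. The 12 log2 ratios (pseudocount of 1) were tested within libraries by two-sided exact sign-flip permutation tests with Benjamini-Hochberg adjustment. The range calculation was tested on simulated data.

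All members were named, with the rows that overlap them. From lists of more than 5 genes, the 2 highest and the 2 lowest by mean TPM were named, and shorter lists were named in full. The 3 genes nearest to MYC and to MAX by Euclidean distance were added. Members and lists were chosen with earlier results of these data known. Of the rows that overlap members, those of the microRNA, read-through and uncharacterised LOC genes, with a mean of at most 1.13 TPM, are not described. Alternatives were other pseudocounts and minimum levels, FPKM, coverage, other scalings and leaving out each replicate. Python 3.11.15, numpy 2.4.6, pandas 2.3.3 and matplotlib 3.10.9 were used.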

Additional observations from a re-analysis of the deposited data

How the results depend on the processing

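Coverage in place of TPM reversed the sign of the mean in 4 of the 12 log2 ratios. These means became 3.03 for MXD3 to MAX, 2.32 for MXD4 to MAX, 1.48 for MNT to MAX and -0.17 for all antagonists to the MYC family. The cause was not tested. The ratio of MXD3 to MAX, -0.01 in the report, was 0.019 without replicate 1, 0.045 without replicate 2 and -0.089 without replicate 3, so its range crossed 0. The other 11 ratios had the same sign in all 3 libraries by TPM, so leaving out a replicate could not reverse them. A pseudocount of 0.1, FPKM, median-of-ratios scaling and rescaling without mitochondrially encoded genes cannot change a sign within a library. Under these settings only the mean ratio of MXD3 to MAX could turn, and it did not. With 3 libraries no p can fall below 0.25, and with a replicate left out none below 0.5, so these settings say nothing of a threshold. Rescaling without mitochondrially encoded genes raised the mean TPM of every member by a factor of 1.25. The counts of members at 1 and at 10 TPM stayed at 8 and 7 under both scalings and with each replicate left out. The former was 9 with a minimum of 0.1 TPM. Leaving out a replicate, rescaling without mitochondrially encoded genes or lowering the minimum could only keep or raise these counts. Percentiles rose with lower minimum levels in all 8 members, since low genes enter the comparison. With a minimum mean of 0.1 TPM and with no minimum they were 91.5 and 96.0 for MYC, 82.3 and 91.6 for MAX, 58.1 and 80.1 for MXI1, 67.8 and 84.7 for MNT, 67.2 and 84.4 for MGA and 41.0 and 71.9 for MXD1. For MXD3 they were 82.2 and 91.5, and for MXD4 78.0 and 89.5. Of all genes, 173 had a range above 1, against 300 with a pseudocount of 0.1, 23 with a minimum mean of 10 TPM and 94 to 113 with a replicate left out, where fewer libraries or genes can only lower the count. No paired analysis was possible because only 1 condition was sequenced. The unknown depth limits MYCN, MYCL and the genes listed at 0.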

Other observations

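The difference by transcript length was also present between the other pairs of libraries, and it was examined after the values of MGA had been seen. Replicate 1 exceeded replicate 2 in 87.2% of the longest length bin and in 43.8% of the shortest, with median log2 ratios of 0.11 and -0.02. Replicate 2 exceeded replicate 3 in 69.8% of the longest bin and in 52.6% of the shortest, with median log2 ratios of 0.04 and 0.01. Across the 8100 genes, which are not independent replicates, Spearman's rho of length with the log2 ratio was 0.41 for replicate 1 to 2, 0.45 for replicate 1 to 3 and 0.13 for replicate 2 to 3. For MGA the log2 ratio was 0.24 for replicate 1 to 2 and 0.17 for replicate 2 to 3, and for MXI1 it was 0.31 and -0.06.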
